A study of Mus musculus with 11 samples.

Results

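The lactase gene Lct was followed across 90 kb of mouse chromosome 1, from 130160000 to 130250000 (build mm9), in chromatin immunoprecipitation and sequencing (ChIP-seq) lists from villus epithelium of the jejunum. In wild type, 34 nucleosomes carrying H3K4me2, a histone mark of active promoters and enhancers, were called in the locus. None was called in any of the 3 lists from villi with a Cdx2 deletion, and 24 were called in Hnf4a knockout. Members were all listed factor peaks overlapping the interval and all listed H3K4me2 nucleosomes centred in it with a score of 52 or more. They came to 68 of 1367761 regions in the 10 lists, 58 of them nucleosomes and 10 factor peaks. The locus was selected on its H3K4me2 calls and its CDX2 peaks in these same lists, so the counts in it are given as a description, with no test.

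Lct encodes lactase-phlorizin hydrolase, the enzyme of the enterocyte brush border that splits the milk sugar lactose. It is a classic product of differentiated small-intestinal villus cells, highest in suckling mammals and lower in most of them after weaning. CDX2, a homeodomain protein that controls genes of the gut lining, binds AT-rich sequence with a TTTAT-like core. HNF4A is a nuclear receptor active in enterocytes. The neighbouring gene Mcm6 encodes a subunit of the helicase that unwinds DNA at replication, and in humans an intron of MCM6 holds an enhancer of LCT.

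Lct is transcribed towards lower coordinates, and its approximate start was taken as 130225000. Positions are therefore given as kilobases downstream of the start (lower coordinates, in the direction of transcription) or upstream of it. No gene positions of build mm9 were used here beyond that start. In build GRCm38 the starts of Lct and Mcm6 lie 31387 bases apart, more than the 25000 bases from the Lct start to the upper edge of the locus, so the start of Mcm6 is not described as part of it.

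CDX2 had 2 wild-type libraries and 1 from Hnf4a knockout, and HNF4A had 1 each from wild type and Cdx2 knockout. H3K4me2 had 1 library each from wild type, Cdx2 knockout, Hnf4a knockout and a pair of double knockouts titled Cdx2-Cdx1 and Cdx2-Hnf4a. All labels of the double knockouts have Cdx2 deleted, but they contradict each other on the second gene, so both libraries are called by their titles and nothing is drawn from that gene. All these mice had a mixed 129xC57BL6 background. The labels give no age, no sex and no account of how the genes were deleted. ChIP DNA was pooled before each library was built, and whether the pair of wild-type CDX2 libraries had separate animals as their source is not stated. Of the 11 samples, the input DNA was not analysed here. The number of reads behind each list was not known here, so the depth is unknown. A region missing from a list was not called there, and binding or mark too weak to be called may still have been present. Fewer marked cells and less mark per cell cannot be told apart in such tissue.

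The proximal promoters of Lct and Mcm6 are shown because CDX2 and H3K4me2 calls met at the Lct start, while Mcm6 is the next gene upstream. Each line gives the 250 bases before the RefSeq start in build GRCm38.p6, minus strand, 5′ to 3′. These are chr1:128328319-128328568 for Lct and chr1:128359706-128359955 for Mcm6. Capitals mark every match, on either strand, to TTTAT, which the opposite strand shows as ATAAA. They also mark TTTAC, whose opposite strand is written GTAAA. The third motif, AGATAA, is a sequence recognised by GATA factors and reads TTATCT on the opposite strand.
Lct: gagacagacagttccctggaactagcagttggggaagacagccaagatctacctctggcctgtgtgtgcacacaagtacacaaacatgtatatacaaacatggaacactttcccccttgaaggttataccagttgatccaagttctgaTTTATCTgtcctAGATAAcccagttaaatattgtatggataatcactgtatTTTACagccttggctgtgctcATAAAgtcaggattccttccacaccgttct
Mcm6: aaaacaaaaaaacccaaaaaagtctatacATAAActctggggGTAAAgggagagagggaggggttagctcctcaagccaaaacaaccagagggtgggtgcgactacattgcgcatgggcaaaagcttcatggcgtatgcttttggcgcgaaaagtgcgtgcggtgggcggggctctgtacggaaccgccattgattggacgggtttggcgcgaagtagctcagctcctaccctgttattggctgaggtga

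The Lct promoter held 3 matches to the CDX2-like cores. They were TTTAT at 102 to 98 bases before the start, TTTAC at 51 to 47 bases and ATAAA at 30 to 26 bases. Both AGATAA matches of Lct lay in the same stretch, at 101 to 96 and at 90 to 85 bases before the start, and the former overlaps the TTTAT match. Mcm6 held 1 ATAAA match, at 221 to 217 bases, and 1 GTAAA match, at 208 to 204 bases, both far from its start, and no AGATAA match. Of 32851 RefSeq mouse promoters of this length, 37.3% held TTTAT, 28.3% held TTTAC and 9.99% held AGATAA on either strand. As many TTTAT and TTTAC matches as in Lct, or more, were found in 11.4% of them. The HNF4A-type sequence CAAAGTCCA, searched on both strands, was in neither promoter and in 0.384% of all. The GC content was 42.8% in Lct and 52.4% in Mcm6, with 1 and 13 CG dinucleotides. Such matches describe letters only and mark no binding site.

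CDX2 was called at the Lct start in both wild-type libraries. The library 1 peak spanned 130224368 to 130225341 with a score of 156.07, the 1023rd highest of 12121 peaks, and it covered the start position. The library 2 peak, at 130224774 to 130225028, scored 59.33 and lay inside it. The peak score is the authors' own value for each peak, with about 50 as the lowest in each CDX2 list, and it cannot be set side by side between libraries of unknown depth. The start peak was the only one of the 5 library 1 peaks in the locus that library 2 also called, and over the genome 13.1% of library 1 peaks were overlapped by library 2.

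The other 4 CDX2 peaks came from library 1 alone. The second highest, at 130220744 to 130221224, scored 116.10 and was centred 4.02 kb downstream of the start. Further downstream were peaks centred at 13.9 kb (130210827 to 130211425, score 66.11) and at 23.4 kb (130201318 to 130201905, score 84.56). The remaining one was centred 9.45 kb upstream of the start (130234163 to 130234746, score 78.54). CDX2 peaks were thus spread over both sides of the start, with the higher scores at and just inside the gene. Of the 7482 windows of 90 kb with a library 1 peak, 224 (2.99%) held 5 or more, as the locus did. The locus was selected on its CDX2 peaks, so nothing is read from this share.

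In Hnf4a knockout, 1 CDX2 peak was called in the locus, at 130220990 to 130221231 with a score of 56.90. It overlapped the wild-type library 1 peak 4.02 kb downstream of the start. The start peak, called in both wild-type libraries, was not called in the knockout. Merging the wild-type libraries left 5 CDX2 regions in the locus, of which 1 was called again, or 20.0% (exact Clopper-Pearson 95% interval 0.505 to 71.6, counting error only). Over the genome 7.15% of 17966 merged regions were called again, and 8.60% of library 1 peaks. With 5 regions, a share like that of the genome was within the interval. The called region came from library 1, and with library 2 alone the share was 0 of 1.

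HNF4A was called at 3 places in the wild-type locus and at none in Cdx2 knockout. The highest peak, at 130219711 to 130220211, scored 158.46, the 5068th highest of 22376, and was centred 5.04 kb downstream of the Lct start. It ended 532 bp short of the CDX2 peak at 4.02 kb and did not overlap it. The others, at 130193518 to 130193702 (score 53.08, 31.4 kb downstream) and at 130175254 to 130175439 (84.13, 49.7 kb downstream), had no H3K4me2 nucleosome with a score of 52 or more closer than 1 kb. No HNF4A peak was called at the Lct start itself.

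Over the genome, 30.1% of wild-type HNF4A peaks were called again in Cdx2 knockout, and 56.5% of the 8734 with a score of 100 or more. The locus held 1 peak of that score, so 0 of 1 and 0 of 3 called again are too few to set apart from these shares. The 95% interval of 0 of 3 reached 70.8%. The Cdx2 knockout list was shorter, with 9676 peaks, and its lowest score was also 50.

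**Figure D1:**
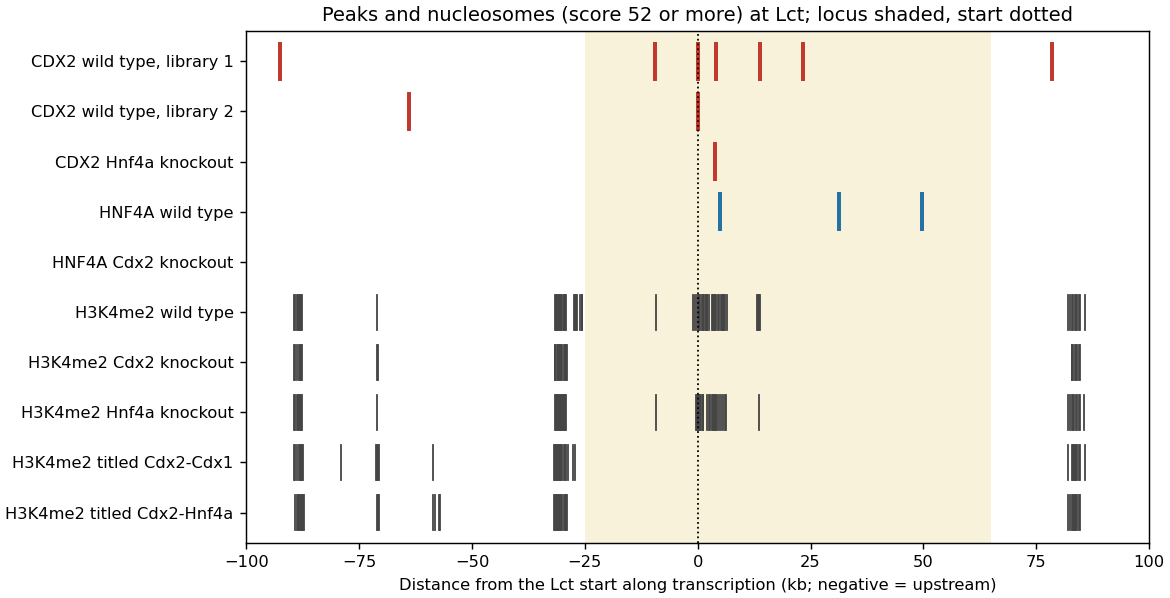
Called regions in each of the 10 lists within 100 kb of the Lct start, by distance along transcription in kb. Each tick is 1 CDX2 peak (red), HNF4A peak (blue) or H3K4me2 nucleosome with a score of 52 or more (grey), and the locus is shaded. Nucleosomes fill the start region only for wild type and the Hnf4a knockout, while the clusters on either side of the locus appear in all 5 H3K4me2 lists.

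In wild type the mark was concentrated at the start and the first kilobases of Lct. Of the 34 nucleosomes, 29 formed a run with no gap of 1 kb or more, from 130218411 to 130226211, that is from 6.59 kb downstream to 1.21 kb upstream of the start. A separate group of 4 lay 13.2 to 13.9 kb downstream, and 1 nucleosome (130234231 to 130234321, score 99.7) lay 9.28 kb upstream. Both of these outlying positions coincided with a CDX2 peak of library 1. From 15 kb downstream to the lower edge, 65 kb downstream, no nucleosome was called in wild type, although 1 CDX2 and 2 HNF4A peaks were. With 34 nucleosomes the locus held more than 86.4% of the 15212 windows of 90 kb marked in wild type, and the 5 kb window ending at the start, with 19, more than 99.6% of 62183 marked windows of that size. Nothing is read from these ranks, as the locus was selected on its H3K4me2 calls.

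The nucleosome score, 10 times the −log10 of a p-value per the file headers, ran from 58.3 to 789.3 in the wild-type locus, with a median of 244.0 against 241.6 over the whole wild-type list. The highest was at 130221801 to 130221921 (789.3), followed by 130221631 to 130221721 (711.1) and 130223661 to 130223771 (651.4). They lie 3.14, 3.32 and 1.28 kb downstream of the start. From 3.14 to 4.09 kb, beside the CDX2 peak at 4.02 kb, 6 neighbouring nucleosomes all scored 339.8 or more. The 3 nucleosomes between 1.97 and 2.42 kb scored lower, at 58.3 to 105.6.

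The position taken as the start is approximate, and it fell between nucleosomes. In wild type the flanking nucleosomes ended at 130224861 and began at 130225071, leaving 209 bp, and in Hnf4a knockout this gap was 189 bp. The centre of the library 2 CDX2 peak, 0.099 kb downstream of the start, lay in the same gap, while that of the higher-scoring library 1 peak (0.146 kb) fell inside the wild-type nucleosome next to it. The centre of the library 1 peak at 13.9 kb also fell inside a nucleosome, and that of the peak at 4.02 kb between nucleosomes. The centre of the HNF4A peak at 5.04 kb also fell between nucleosomes, in a gap of 349 bp in wild type. In Hnf4a knockout the gap there was 339 bp. Both gaps were thus nearly as long in Hnf4a knockout as in wild type.

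**Figure D2:**
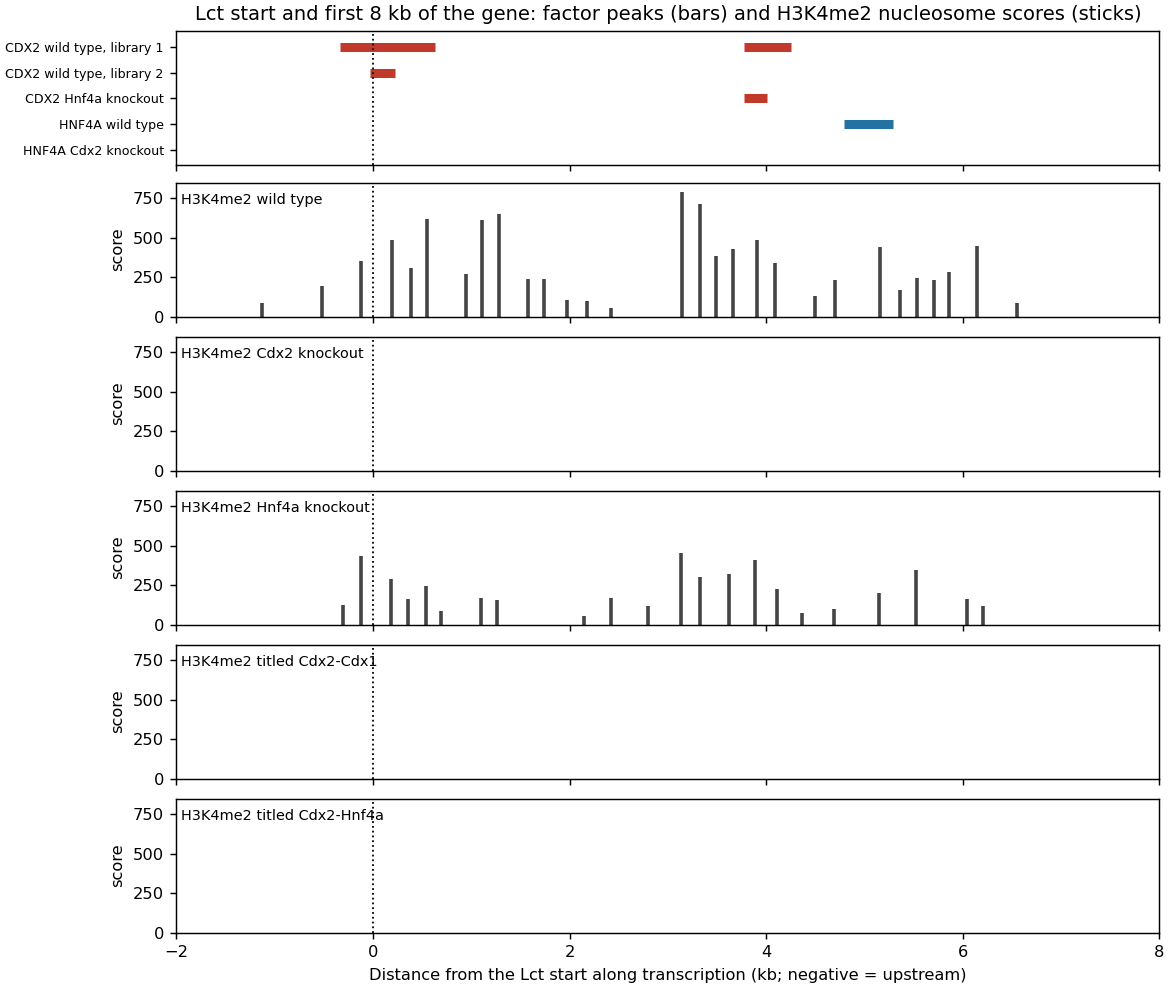
The region from 2 kb upstream to 8 kb downstream of the Lct start. Bars in the top panel are factor peaks; sticks below are H3K4me2 nucleosomes at their centres, with height showing the nucleosome score (no unit). Sticks reach 789.3 for wild type, 453.6 for Hnf4a knockout, and the panels of the 3 lists lacking Cdx2 are empty.

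No H3K4me2 nucleosome was listed in the locus in Cdx2 knockout, in the library titled Cdx2-Cdx1 or in the library titled Cdx2-Hnf4a. In wild type the same 90 kb held 34 nucleosomes covering 3510 bp. The 5 kb window from 130220001 to 130225000, which ends at the start, held 19 nucleosomes in wild type and 0 in each of these 3 lists. The neighbouring windows, which held 7 and 4 downstream and 3 and 1 upstream in wild type, were also at 0. Of the 34 wild-type nucleosomes, 0 had a counterpart, meaning a nucleosome centre within 73 bp, in any of the 3 lists (0%, exact Clopper-Pearson upper limit 10.3%, counting error only). Over the genome the share without a counterpart was 22.4% of wild-type nucleosomes in Cdx2 knockout, 26.2% in the library titled Cdx2-Cdx1 and 29.1% in the library titled Cdx2-Hnf4a.

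Empty windows were also counted over the genome. Of 5331 windows of 90 kb, aligned to the locus and holding at least 17 wild-type nucleosomes, 0.0188% (1 window) had no nucleosome in Cdx2 knockout, and so had 0.0188% in the library titled Cdx2-Cdx1 and 0.0375% (2 windows) in the library titled Cdx2-Hnf4a. The 1 window empty in all 3 (0.0188%) was the locus itself. The locus was chosen with these values in view and the windows were aligned to it, so nothing is read from its place. Among 32763 windows of 5 kb with 3 or more wild-type nucleosomes, 2.34%, 2.30% and 5.33% were empty in Cdx2 knockout and in the libraries titled Cdx2-Cdx1 and Cdx2-Hnf4a, and 1.11% in all 3.

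The lists lacking Cdx2 did hold nucleosomes on both sides of the locus. In the 90 kb below it, 10 nucleosomes were called in wild type, 8 in Cdx2 knockout and 10 in each double knockout and in Hnf4a knockout. In the 90 kb above it the counts were 28 in wild type, 21 in Cdx2 knockout, 21 in Hnf4a knockout and 29 in each double knockout. The window from 130255001 to 130260000, 30 to 35 kb upstream of the Lct start and thus at the distance of the Mcm6 start in GRCm38, held 8 in wild type, 7 in Cdx2 knockout, 8 in Hnf4a knockout, 9 in the library titled Cdx2-Cdx1 and 9 in that titled Cdx2-Hnf4a. Both flanks thus held calls in these 3 libraries, but not throughout. Just above the upper edge, 6 wild-type nucleosomes lay before the first nucleosome of any of the 3. Hnf4a knockout had no call in that part either, as its first nucleosome above the locus lay 29.06 kb upstream. Counted from the same minimum of 52, list totals were 256794 (Cdx2 knockout), 281957 (titled Cdx2-Cdx1) and 275915 (titled Cdx2-Hnf4a). Wild type had 245431. Whether depth or the library had a part in the absence was not tested.

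The stretch without a nucleosome ran well past the marked region. In Cdx2 knockout it measured 111.7 kb, from the nucleosome ending at 130142161 to the one starting at 130253881. In the libraries titled Cdx2-Cdx1 and Cdx2-Hnf4a it measured 109.1 and 110.9 kb. Between the nearest nucleosomes outside the locus, the span was 107.5 kb in wild type and 111.1 kb in Hnf4a knockout. Most of this length held no nucleosome in wild type either, so it does not measure an extent of loss. Just outside the upper edge, the window from 130250001 to 130255000 held 11 nucleosomes in wild type and 4 to 6 in the other lists, including 4 in Hnf4a knockout. The wild-type nucleosome nearest outside that edge was at 130250451 to 130250581 (score 63.6), and the nearest inside was the one at 130234231 (99.7).

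**Figure D3:**
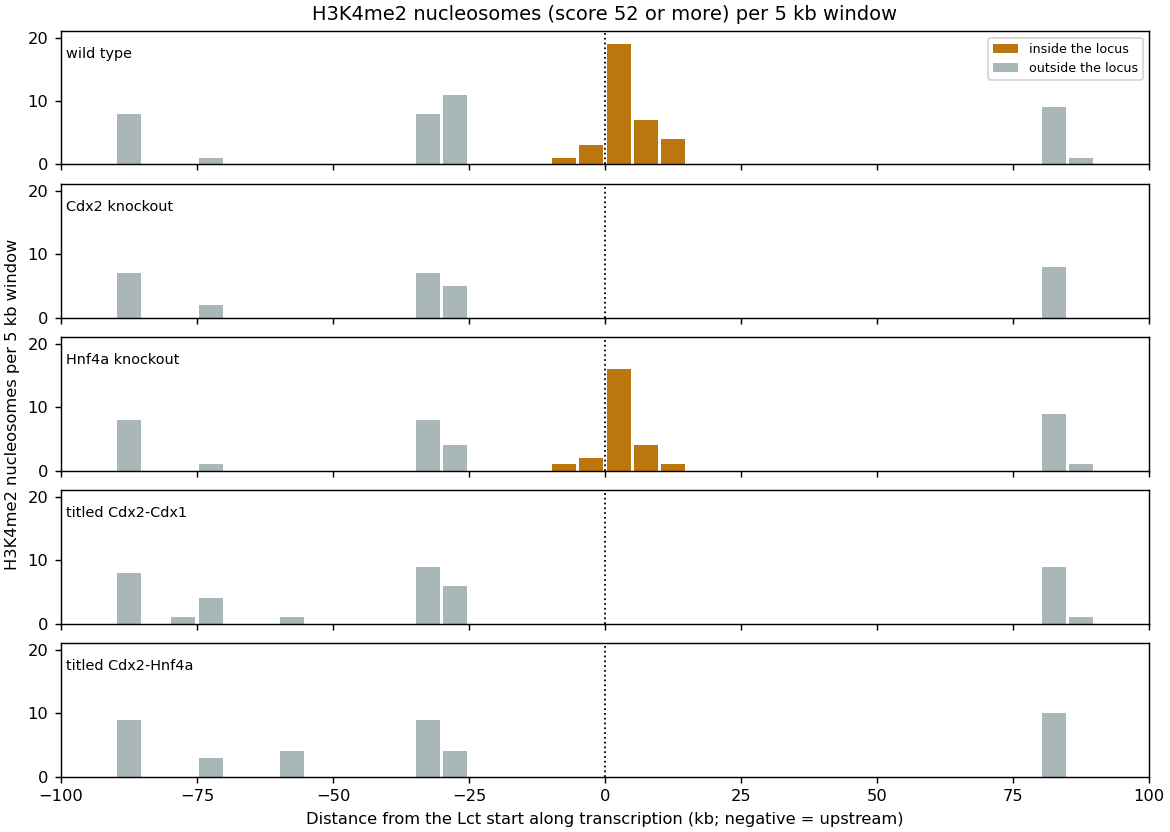
Number of H3K4me2 nucleosomes with a score of 52 or more in each 5 kb window within 100 kb of the Lct start, 1 panel per list. Bars inside the locus (brown) peak at 19 for wild type and at 16 for Hnf4a knockout and are missing in the 3 lists lacking Cdx2, while bars outside it (grey) are present in all 5.

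In Hnf4a knockout the mark was called over the same part of Lct, with fewer nucleosomes and mostly lower scores. The locus held 24 nucleosomes covering 2440 bp, against 34 covering 3510 bp in wild type. Scaled by the list totals of 250282 and 245431, the ratio was 0.692 (exact binomial 95% interval 0.393 to 1.20, counting error only). The 5 kb window at the start held 16 against 19, a scaled ratio of 0.826 (0.397 to 1.70). Of the 90 kb windows above, 0.169% had a scaled ratio of 0.5 or less in Hnf4a knockout, with a median of 0.981. The locus ratio of 0.692 was at percentile 2.04 of these windows, and it was 0.865 when scaled by the nucleosomes within 90 kb on either side. Because the locus was selected on its H3K4me2 calls in these lists, nothing is read from that percentile. Of the 5 kb windows above, 6.57% had a ratio of 0.5 or less. With the lists as deposited, the ratio of the start window was 0.435 (0.209 to 0.894), with the counts still at 16 and 19.

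The counts by position were as follows. From the start to 5 kb downstream, 16 nucleosomes were called where wild type had 19. Between 5 and 10 kb, where the wild-type HNF4A peak lies, there were 4 against 7. Between 10 and 15 kb there was 1 against 4, at 130211381 to 130211471 (score 102.6). The run around the start was shorter, with 22 nucleosomes over 6.62 kb against 29 over 7.80 kb, and the median spacing between neighbouring centres in it was 275 bp against 207.5 bp. Over each whole list, neighbours up to 1 kb apart were a median of 235 bp apart in Hnf4a knockout and 220 bp in wild type. The nucleosome 9.28 kb upstream, beside a CDX2 peak, was called in both, with 99.7 in wild type and 118.7 in the knockout. Counts per window are small, and no difference between windows was tested.

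Of the 34 wild-type nucleosomes, 19 had a counterpart in Hnf4a knockout, or 55.9% (exact Clopper-Pearson 95% interval 37.9 to 72.8), and 15 had none. Over the genome, 76.8% of wild-type nucleosomes had one and 23.2% did not. Counterparts were shifted by a median of 10 bp, the same as over the genome. Wild-type nucleosomes without a counterpart scored 64.1 to 383.9. The 10 above that range thus had one by definition, and matched nucleosomes also went down to a wild-type score of 58.3. Of the 24 knockout nucleosomes, 5 had no wild-type nucleosome within 73 bp, such as one at 130222151 to 130222251 (118.7), inside a wild-type gap of 599 bp. The same share over all Hnf4a knockout nucleosomes is not given here, so nothing is read from this count.

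Matched nucleosomes scored lower in Hnf4a knockout in 15 of 19 cases, and the share scoring lower over the genome is not given here. The median log2 ratio of knockout to wild-type score was -0.80, a ratio of 0.575, against -0.14 and 0.905 over all matched nucleosomes of these lists. The wild-type maximum of 789.3 became 453.6, the highest score of the knockout in the locus, ahead of 435.0 at 130225071 and 412.6 at 130221041. The pair at 1.10 and 1.28 kb downstream went from 613.3 to 172.2 and from 651.4 to 155.8, the latter the largest drop at -2.06 on the log2 scale. The nucleosome immediately upstream of the start, at 130225071, scored 355.5 in wild type and 435.0 in the knockout. It was 1 of 4 that scored higher there. The others were at 130219421 (246.4 to 347.1), at 130222521 (58.3 to 172.2) and the one 9.28 kb upstream. Scores move with depth, which is unknown, and each condition had 1 library, so the spread of such ratios between libraries of one condition is unknown.

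**Figure D4:**
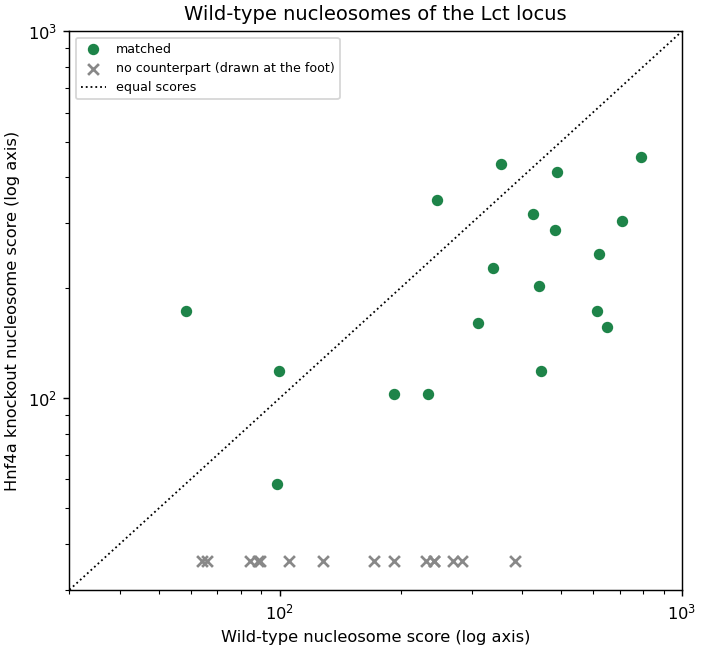
Scores of the 34 wild-type nucleosomes of the Lct locus (x axis, log scale) against the scores of their counterparts in Hnf4a knockout (y axis, log scale); scores have no unit. Of the 19 matched nucleosomes (green), 15 lie below the dotted line of equal scores; the 15 without a counterpart (grey crosses) are drawn at the foot of the plot at no value.

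Around the factor peaks, the nucleosomes within 1 kb were counted in each list. At the CDX2 start peak of library 1 wild type and Hnf4a knockout each had 7. At the CDX2 peak 4.02 kb downstream wild type had 8 and the knockout 7, and at the HNF4A peak 5.04 kb downstream 8 and 6. At the CDX2 peaks 13.9 kb downstream and 9.45 kb upstream there were 4 and 1, and 1 and 1. The CDX2 peak 23.4 kb downstream had 0 in both. In the 3 lists lacking Cdx2 the count was 0 at each of these peaks. Where CDX2 was called in both wild-type libraries, at the start, the Hnf4a knockout had no CDX2 call and as many called nucleosomes as wild type. Over the genome 7.15% of merged wild-type regions were called again in that list. Most of those regions came from a single library, since 13.1% of library 1 peaks were overlapped by library 2. The share called again among regions of both wild-type libraries, like the start peak, is not given here. Of the 7 wild-type nucleosomes there, 5 had a counterpart. These mostly scored lower in the knockout, as at 130224391 (620.2 to 247.1), while the one at 130225071 scored higher (355.5 to 435.0). Whether CDX2 binding was lost there was not tested.

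The Hnf4a knockout list alone reached below a score of 50, and 25 of its nucleosomes in the locus scored under 52 and were left out. Their highest scores were 47.2 and 44.5, while the lowest score kept was 58.4. Of these 25, 12 lay more than 15 kb downstream of the start, where no list held a nucleosome with a score of 52 or more. Whether the other libraries had such weak signal was not tested, since their lists end near 50.

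**Figure D5:**
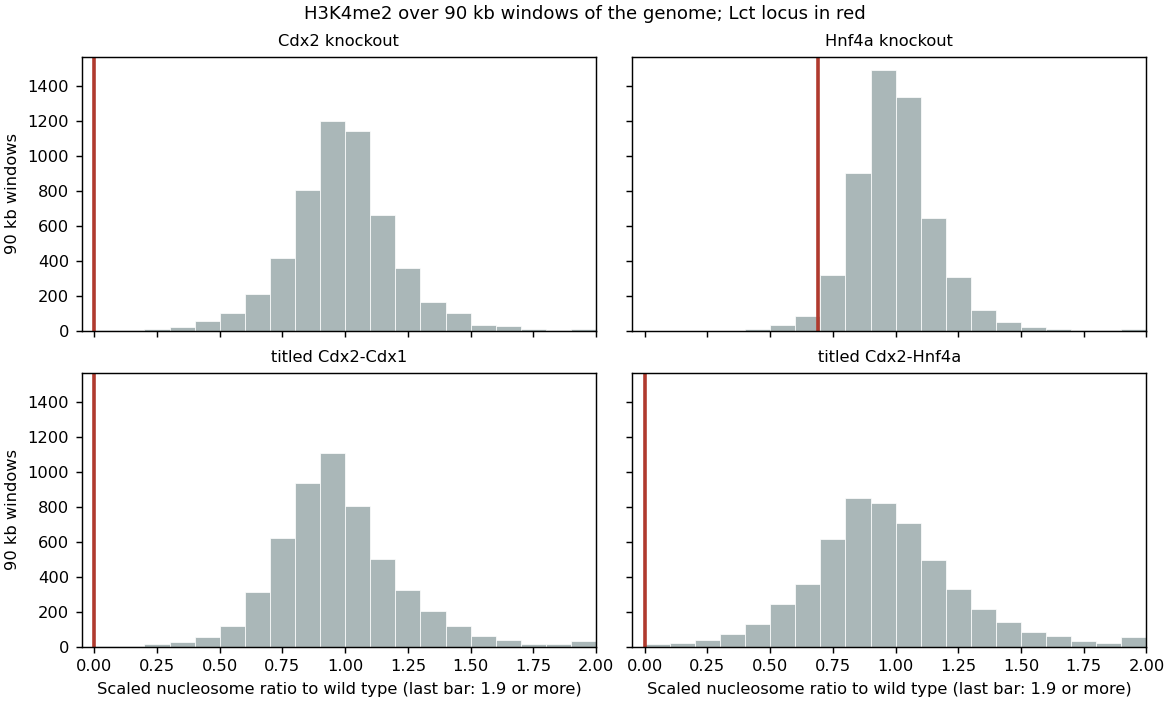
Number of 90 kb windows (y axis) by the scaled ratio of H3K4me2 nucleosomes to wild type (x axis, no unit; the last bar holds 1.9 or more) for each knockout list, over the 5331 windows with at least 17 wild-type nucleosomes. The red line marks the Lct locus, at 0 in the 3 lists lacking Cdx2 and at 0.692 in Hnf4a knockout.

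The 5 kb windows elsewhere with a pattern most like the Lct start window were found by distance over the 5 H3K4me2 lists, as log2 of scaled counts plus 1. Of 5182 windows with at least 10 wild-type nucleosomes, against 19 at Lct, the nearest lay on chromosome 6 at 78330001 to 78335000 (distance 0.334), where wild type and Hnf4a knockout each had 15 nucleosomes and each list lacking Cdx2 had 0. Next was chromosome 11 at 118850001 to 118855000 (0.378), with 20, 21 and 0. Chromosome 4 at 106405001 to 106410000 (0.503) had 15, 12 and 0, and chromosome 10 at 101835001 to 101840000 (0.945) had 10, 12 and 0. The fifth, on chromosome 16 at 4035001 to 4040000 (1.09), had 15 in wild type, 12 in Hnf4a knockout, 1 in Cdx2 knockout and 0 in the double knockouts. No CDX2 or HNF4A peak was called within the first 4 of these windows in any list. Wild-type peaks were also counted in stretches around them without a nucleosome in the lists lacking Cdx2. The stretch around the nearest window, on chromosome 6 (78323052 to 78375520), held no CDX2 and no HNF4A peak. That on chromosome 4 (106403752 to 106411550) held 2 HNF4A peaks and no CDX2 peak. That on chromosome 11 (118844772 to 118855180) held 1 CDX2 and 2 HNF4A peaks. The Lct start window held 2 CDX2 peaks of wild-type library 1, 1 of library 2 and 1 of Hnf4a knockout, and the HNF4A peak at 5.04 kb reached into it. The fifth held 1 CDX2 peak of library 1. No gene positions of build mm9 were used, so these windows are given by position only.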

How the data were processed

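ChIP-seq lists of CDX2 and HNF4A peaks (5 lists) and of H3K4me2 nucleosomes (5 lists) were used as deposited by the authors, in build mm9 per the submitters' processing notes. The deposited peak score has no stated meaning, though each deposited peak is named after MACS, a peak caller. The deposited nucleosome score is 10 times the −log10 of a p-value, per the file headers. For the aligner, the callers' settings, the controls and the depth, the answer is: not given in the sources used here. Peak starts are printed counting from 1, and nucleosome positions as the files give them. Nucleosomes at a score of 52 or more were counted by centre, because the lists ended at different scores, and ratios were scaled by list totals. Peaks were called again where they overlapped by 1 bp. Genome-wide windows and list-wide shares served as background.

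Members and lists were chosen with earlier results of these data known. Named items were Lct, Mcm6, every factor peak of the locus, the 3 highest nucleosomes of each list, those of the start window, and the 5 windows most like it. Other single nucleosomes were named after their values were seen. Groups came from sample titles. With 1 library per group, except CDX2 in wild type, no p-value was computed. Intervals (95%, exact) cover counting error only and treat neighbouring calls as independent. Promoter sequences came from RefSeq (GRCm38.p6, both genes matched). The planned checks at starts of other genes, markers of the tissue included, were not run because no mm9 gene positions were used here. Window counts and counterparts were tested on simulated data. Python 3.11.15, numpy 2.4.6, pandas 2.3.3 and scipy 1.17.1 were used.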

Additional observations from a re-analysis of the deposited data

How the results depend on the processing

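Of 67 alternatives, 65 left the value within the counting interval of the reported one. All 45 for H3K4me2 in the 3 lists lacking Cdx2 gave 0, with lists as deposited, at a score of 100 or more, with equal numbers of nucleosomes, with other scalings and with other definitions of a counterpart. As deposited, these lists already held 0 nucleosomes in the locus. The stricter score, equal numbers, scalings and counterpart definitions could therefore only give 0 again, and the 45 are not separate checks. For Hnf4a knockout relative to wild type, the locus ratio ran from 0.692 to 0.865, the latter when scaled by the nucleosomes within 90 kb on either side, a setting added after seeing the data. Its ratio at the start window was 0.435 with the list as deposited, where both counts stayed at 16 and 19 and only the list total grew. The share with a counterpart ran from 52.9% to 61.8%. The share of CDX2 regions called again in Hnf4a knockout was 0% (0 of 2) among peaks of score 100 or more. Leaving out a wild-type CDX2 library gave 0% to 20.0%, 0% being without library 1. HNF4A peaks called again stayed at 0 under all 3 alternatives. No paired analysis was possible because no result comes from a test and every knockout had 1 library. Unknown depth limits what a missing call shows.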

Other observations

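Stretches of the genome without any nucleosome in the 3 lists lacking Cdx2 were ranked by the wild-type nucleosomes they held, a ranking chosen after seeing the data. The Lct locus was selected on these same calls, so nothing is read from its rank. Of 23475 such stretches with at least 1 wild-type nucleosome, the one holding the Lct start held the most, 40, with 24 in Hnf4a knockout. It ran from 130142992 to 130252140, or 109.1 kb, and 6 of the 40 lay above the upper edge of the locus. It held 3 wild-type HNF4A peaks and 7 wild-type CDX2 peaks, which form 6 regions because both libraries called the start. The next, on chromosome 11 at 118844772 to 118855180, held 29 and 28 over 10.4 kb, with 1 CDX2 and 2 HNF4A peaks. By the smaller of the wild-type and Hnf4a knockout counts, that stretch came first with 28 and the one at Lct second with 24. In the opposite direction, stretches empty in wild type and Hnf4a knockout were ranked by their least count. The first, at 78039962 to 78052030 of chromosome 9, held 23 in Cdx2 knockout, 28 in the library titled Cdx2-Cdx1 and 30 in the library titled Cdx2-Hnf4a.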
